A study of Mus musculus with 9 samples.

Results

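The genes described here were 38 type I interferon-stimulated genes, chosen by name as genes that type I interferon is known to induce, out of 50309 genes or groups of inseparable genes named in the expression tables of 9 mouse liver tumors. All 38 were listed in every tumor, 24 of them with an entry of their own in all 9 tumors and 14 with an entry that also named another gene in at least 1 tumor. Ifit2, Ifit3 and Ifit3b shared entries with each other and were summed, which left 36 measured features.

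The tumors were grown from pieces of Hepa1-6 tumor, a mouse hepatoma cell line, implanted in the left liver lobe of male C57BL/6 mice that the study obtained at 6 to 8 weeks of age. Mice received intraperitoneal PBS or anti-PD-1 antibody 5 times, 4 days apart, from day 10 to day 26, and whole tumors were taken on day 27 with surrounding tissue removed. There were 3 PBS tumors, 3 nonresponsive tumors and 3 responsive tumors, each from 1 mouse. The study set the antibody groups by size, keeping the largest treated tumors as nonresponsive and the smallest as responsive and leaving out intermediate ones, and the control was PBS, not a control antibody. Size, outcome and anything that goes with a small tumor therefore cannot be told apart in the contrast between both antibody groups.

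Type I interferons are secreted proteins that bind the receptor IFNAR1/IFNAR2 on nearly all cells, where JAK1 and TYK2 phosphorylate signaling factors that include STAT2. STAT2 and IRF9 are parts of the ISGF3 complex, which binds the interferon-stimulated response element in the promoters of antiviral and immune genes. In tumors the response is known for its part in antigen presentation and in the recruitment of lymphocytes, and, when prolonged, for inhibitory effects as well.

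Levels are FPKM, fragments scaled for transcript length and for all mapped fragments, in bulk RNA, so that a lower level from fewer cells of a type and one from less RNA per cell cannot be told apart. Depth in fragments is unknown, but the steps between low FPKM values put all tumors between 0.936 and 1.07 times the depth of PBS tumor 1. Entries without a gene name took 19.2% to 81.5% of all FPKM in a tumor. Responsive tumor 1 and nonresponsive tumor 1 correlated at 0.958 over all genes on the log2 scale, within a range of 0.851 to 0.960 over all pairs of tumors. The mean log2(FPKM + 1) of 18 hepatocyte markers was 3.52, 6.37 and 6.85 in the PBS tumors, 7.94, 6.93 and 6.20 in the nonresponsive tumors and 9.04, 7.88 and 8.28 in the responsive tumors, so that liver RNA markers differed widely among tumors and PBS tumor 1 stood apart.

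Promoter windows of 300 bases (250 before to 50 after the transcription start, RefSeq, GRCm38.p6) were found for 28 of the 38 genes. The core of the response element was searched as GAAA, any 2 bases, then GAAA, on both strands (TTTC, any 2 bases, then TTTC when read on the other strand), and it occurred in 15 of the 28 genes, 53.6%, against 3.99% of the 27025 genes with a window and 3.44% of their 32851 windows. The interferon-gamma element core TTCNNNGAA, searched the same way and able to overlap the first, occurred in 5 of the 28 genes, 17.9%, against 9.55% of all genes and 8.30% of all windows. The windows of 6 genes are shown, with the response element core in capitals. Isg15, Ifit1 and Rsad2 are among the best known genes of the response. Oas1a, Oas3 and Parp12 were lower in responsive than in nonresponsive tumors at an unadjusted p under 0.05 (limma). None of them passed after adjustment over all genes (adjusted p = 0.887 each, limma). The windows lie at chr4:156200769-156201068, minus strand, for Isg15, at chr19:34640639-34640938, plus strand, for Ifit1, at chr12:26456403-26456702, minus strand, for Rsad2, at chr5:120907476-120907775, minus strand, for Oas1a, at chr5:120777610-120777909, minus strand, for Oas3, and at chr6:39118300-39118599, minus strand, for Parp12.
Isg15 promoter: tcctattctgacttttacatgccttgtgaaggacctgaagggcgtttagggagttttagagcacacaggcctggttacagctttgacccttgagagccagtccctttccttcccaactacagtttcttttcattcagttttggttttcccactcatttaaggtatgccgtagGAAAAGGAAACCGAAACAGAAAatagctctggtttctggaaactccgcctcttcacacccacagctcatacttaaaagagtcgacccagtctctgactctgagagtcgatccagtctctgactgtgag
Ifit1 promoter: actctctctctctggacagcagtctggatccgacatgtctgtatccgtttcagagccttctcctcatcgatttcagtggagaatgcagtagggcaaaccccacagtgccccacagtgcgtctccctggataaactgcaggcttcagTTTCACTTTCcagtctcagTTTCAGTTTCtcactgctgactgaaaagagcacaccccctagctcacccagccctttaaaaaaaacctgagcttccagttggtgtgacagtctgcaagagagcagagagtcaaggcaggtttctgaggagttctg
Rsad2 promoter: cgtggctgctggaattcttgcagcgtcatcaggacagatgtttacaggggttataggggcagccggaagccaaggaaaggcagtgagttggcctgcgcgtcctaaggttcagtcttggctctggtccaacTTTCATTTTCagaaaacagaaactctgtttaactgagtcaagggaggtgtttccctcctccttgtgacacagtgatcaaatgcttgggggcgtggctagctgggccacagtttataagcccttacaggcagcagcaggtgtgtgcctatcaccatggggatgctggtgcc
Oas1a promoter: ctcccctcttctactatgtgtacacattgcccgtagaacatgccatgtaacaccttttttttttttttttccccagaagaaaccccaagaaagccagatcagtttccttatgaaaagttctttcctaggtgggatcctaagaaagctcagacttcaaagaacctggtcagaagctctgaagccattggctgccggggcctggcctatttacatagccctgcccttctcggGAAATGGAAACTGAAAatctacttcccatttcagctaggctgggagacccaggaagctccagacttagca
Oas3 promoter: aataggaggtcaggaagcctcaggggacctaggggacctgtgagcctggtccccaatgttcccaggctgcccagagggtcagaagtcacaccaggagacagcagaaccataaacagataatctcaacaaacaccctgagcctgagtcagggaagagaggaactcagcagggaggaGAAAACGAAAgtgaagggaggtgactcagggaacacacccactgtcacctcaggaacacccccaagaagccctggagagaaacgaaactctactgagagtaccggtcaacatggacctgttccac
Parp12 promoter: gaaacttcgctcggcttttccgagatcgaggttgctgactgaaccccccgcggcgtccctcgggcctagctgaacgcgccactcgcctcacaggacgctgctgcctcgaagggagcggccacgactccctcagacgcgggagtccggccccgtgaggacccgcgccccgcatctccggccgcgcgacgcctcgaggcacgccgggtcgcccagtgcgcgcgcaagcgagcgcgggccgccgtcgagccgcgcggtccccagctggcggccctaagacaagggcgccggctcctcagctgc
Isg15 had 3 overlapping matches and Oas1a 2, each in 1 run of capitals, Ifit1 had 2 separate matches, and Rsad2 and Oas3 had 1 each. These letters did not occur in the Parp12 window, which says nothing of other windows or of binding. No window was matched for Ifi27, Mx1, Mx2, Usp18, Parp9, Parp14, Rtp4, Oas2, Zbp1 and Dhx58.

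The main comparison asked how the genes differed between responsive and nonresponsive tumors. Most were lower in the responsive tumors: 33 of 36 features had a log2 fold change below 0, against 57.5% of all 13828 genes tested, and the median fold change was -0.53 on the log2(FPKM + 1) scale, against -0.07 for all genes. At an unadjusted p under 0.05 (limma, two-sided) 4 features were lower, Oas1a, Oas3, Dhx58 and Parp12, and 0 were higher, against 5.49% of all genes called in either direction, 1.43% lower and 4.06% higher. With Benjamini-Hochberg adjustment over all genes 0 of 36 passed, where 16 genes, 0.116%, passed in all, so none of these differences holds up as a single-gene result after adjustment. A gene is said here to pass or to be called at the unadjusted threshold. In 10 features all responsive tumors lay below all nonresponsive tumors, against 4.74% of all genes, and in 0 they all lay above, against 5.78%. These 10 were Oas1a, Oas3, Oasl2, Ifit1, Dhx58, Ifih1, Parp12, Dtx3l, Irf9 and Trim25. For a single gene an exact two-sided permutation test of 3 against 3 tumors cannot go below 0.1, and these 10 reached that value.

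Averaged over the 36 features, log2(FPKM + 1) was 5.35, 5.16 and 5.43 in the nonresponsive tumors and 4.45, 5.07 and 5.06 in the responsive tumors. The PBS tumors had 5.02, 5.18 and 5.41. The group means were 5.21 ± 0.196 for PBS, 5.32 ± 0.136 for nonresponsive and 4.86 ± 0.358 for responsive tumors (SD, n = 3). Responsive and nonresponsive tumors did not overlap, while the PBS tumors reached into both. Over the 24 genes with an entry of their own the responsive tumors had 4.03, 4.72 and 4.68 and the nonresponsive tumors 4.99, 4.76 and 5.06, again without overlap.

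**Figure D1:**
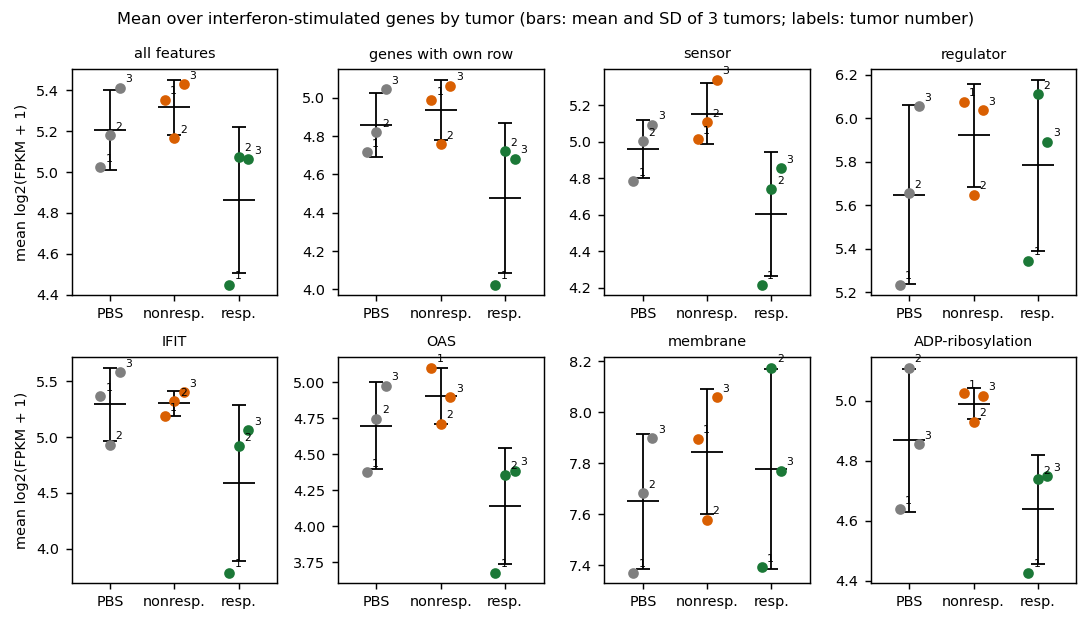
Mean log2(FPKM + 1) by tumor over all 36 features, over the 24 genes with an entry of their own and over 6 role groups, in PBS, nonresponsive and responsive tumors, with points numbered by tumor and bars giving the mean and SD of 3 tumors. Responsive tumor 1 is lowest in 6 of the 8 panels, and all responsive lie below all nonresponsive tumors in every panel but the regulator and membrane panels. Vertical axes differ between panels and do not start at 0.

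Responsive tumor 1 carried much of the difference. It was the lowest of all 9 tumors for 24 of 36 features, against 22.7% of all genes, and its median difference from the mean of the other 8 tumors was -0.64 (log2), against -0.14 over all genes. It also had the most hepatocyte marker RNA, whose part in the result was not tested. Without it the median fold change was -0.23, against 0.01 for all genes, 32 of 36 features were still below 0, against 48.6% of all genes, and 2 were called, both lower, against 1.09% of all genes called lower. Responsive tumors 2 and 3 both lay below all nonresponsive tumors for 11 of 36 features, against 6.99% of all genes. The responsive group had the largest SD of the 3 groups for 25 of 36 features, against 28.5% of all genes, so that the spread among responsive tumors was wide for these genes.

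**Figure D2:**
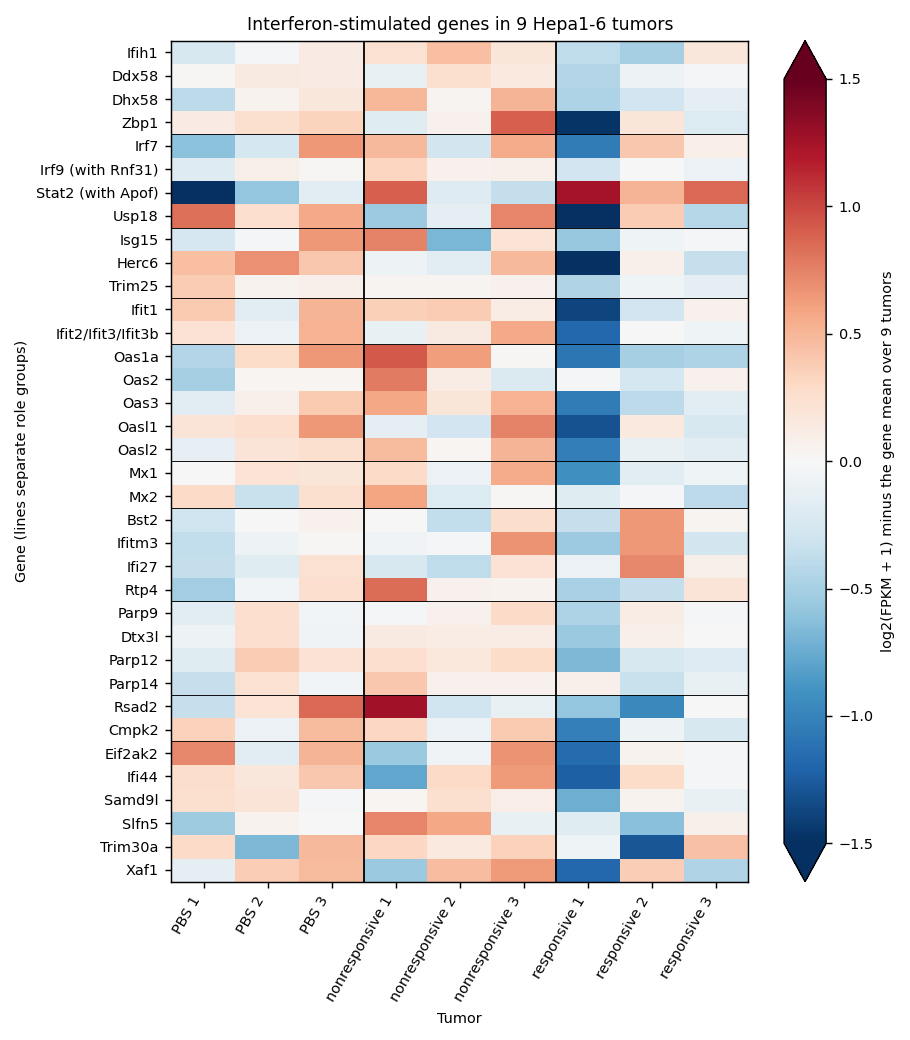
Log2(FPKM + 1) of each of the 36 features (rows, in role groups) in each of the 9 tumors (columns), minus the mean of that feature over the 9 tumors, with colors limited to 1.5 in either direction. The column of responsive tumor 1 is blue for most genes, while the row of Stat2, measured together with Apof, runs the other way.

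The sensors detect foreign or misplaced nucleic acid. Ifih1 (MDA5) and Ddx58 (RIG-I) bind double-stranded RNA in the cytosol, Dhx58 (LGP2) regulates them, and Zbp1 binds Z-form nucleic acid and can trigger cell death. All 4 had fold changes below 0 between responsive and nonresponsive tumors, against 57.5% of all genes.

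Dhx58 stood at 17.5, 12.5 and 17.7 FPKM in the nonresponsive tumors and 8.52, 9.78 and 10.9 FPKM in the responsive tumors. The PBS tumors had 8.96, 12.6 and 13.7 FPKM and overlapped with both. All responsive tumors lay below all nonresponsive ones, and Dhx58 was lower by limma (log2 fold change -0.65, SE 0.22, unadjusted p under 0.05, adjusted p = 0.887). The call was lost without nonresponsive tumor 1 (log2 fold change -0.57) or 3 (log2 fold change -0.56) and without responsive tumor 1 (log2 fold change -0.56) or 2 (log2 fold change -0.65).

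Zbp1, the sensor with the highest level, had 202, 218 and 234 FPKM in the PBS tumors, 163, 193 and 346 FPKM in the nonresponsive tumors and 65.8, 210.4 and 161 FPKM in the responsive tumors. The groups overlapped and the log2 fold change of -0.76 did not pass (SE 0.52, adjusted p = 0.973, limma). Ddx58 had 24.2, 26.1 and 25.9 FPKM with PBS, 22.0, 28.3 and 26.4 FPKM in nonresponsive and 17.4, 22.5 and 23.3 FPKM in responsive tumors, a difference of -0.27 (SE 0.21, adjusted p = 0.973, limma). Ifih1 did not overlap (8.47 to 14.0 FPKM in responsive and 14.2 to 17.4 FPKM in nonresponsive tumors) but missed the threshold (adjusted p = 0.893, limma). The fold change of -0.53 passed without responsive tumor 3 (-0.73) and was lowest in size without responsive tumor 2 (-0.40).

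The regulators carry or restrain the signal. Irf7 is the interferon-inducible factor that amplifies interferon production, Irf9 and Stat2 are subunits of ISGF3, and Usp18 removes ISG15 from proteins and dampens receptor signaling. Irf7 had 48.8, 62.6 and 119 FPKM in the PBS tumors, 107, 62.2 and 112 FPKM in the nonresponsive tumors and 36.0, 101 and 81.1 FPKM in the responsive tumors, with overlap among all groups. Usp18 had 44.1, 29.3 and 36.7 FPKM, then 16.4, 22.0 and 41.2 FPKM, then 7.04, 32.0 and 17.9 FPKM in the same order of groups. Neither differed between responsive and nonresponsive tumors beyond the spread (Irf7 -0.44, adjusted p = 0.973, and Usp18 -0.58, adjusted p = 0.973, limma).

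Stat2 was measured in every tumor as 1 entry with Apof, which encodes apolipoprotein F, a protein secreted by the liver. That entry had 22.4, 71.5 and 96.3 FPKM in the PBS tumors, 202, 94.2 and 83.5 FPKM in the nonresponsive tumors and 256, 154 and 195 FPKM in the responsive tumors. It was highest in responsive tumor 1, where most other features were lowest, and its order among the tumors was close to that of the hepatocyte markers given above, whose part in it was not tested. The log2 fold change was 0.75 over nonresponsive tumors (SE 0.41, adjusted p = 0.927, limma), and it passed without nonresponsive tumor 1 (log2 fold change 1.14) but was 0.51 without nonresponsive tumor 3. No level of Stat2 alone can be read from this entry. Irf9, which shared every entry with Rnf31, had 34.7 to 43.0 FPKM in responsive and 44.8 to 53.6 FPKM in nonresponsive tumors, without overlap (log2 fold change -0.28, adjusted p = 0.973, limma).

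ISG15 is a ubiquitin-like protein that is attached to other proteins, Herc6 is the main ligase for this in mice, and Trim25 is a ubiquitin ligase that acts on RIG-I. Isg15 had 121, 142 and 228 FPKM in the PBS tumors, 243, 89.4 and 167 FPKM in the nonresponsive tumors and 97.3, 138 and 141 FPKM in the responsive tumors. The responsive values lay inside the nonresponsive range, with a log2 fold change of -0.31 (SE 0.41, adjusted p = 0.973, limma) that became 0.02 without nonresponsive tumor 1. Herc6, whose entries also named 2 noncoding genes, had 41.2, 48.7 and 39.9 FPKM with PBS, 28.3, 26.5 and 42.2 FPKM in nonresponsive and 9.70, 31.5 and 23.2 FPKM in responsive tumors. Its fold change over nonresponsive tumors was -0.68 (SE 0.46, adjusted p = 0.973, limma). Trim25 had 43.0, 34.1 and 34.9 FPKM, then 33.9, 34.0 and 34.5 FPKM, then 23.7, 31.4 and 29.8 FPKM in PBS, nonresponsive and responsive tumors. The nonresponsive tumors were nearly equal for Trim25 and all responsive tumors lay below them, by a small -0.27 (SE 0.18, adjusted p = 0.973, limma).

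The IFIT proteins bind viral RNA that lacks the host cap modification. Ifit1 had 23.4, 15.5 and 25.5 FPKM in the PBS tumors, 22.7, 23.2 and 19.1 FPKM in the nonresponsive tumors and 6.13, 14.2 and 18.4 FPKM in the responsive tumors. The last 2 groups did not overlap, and responsive tumor 1 was far below all others. The log2 fold change of -0.82 did not pass (SE 0.40, adjusted p = 0.90, limma), except without responsive tumor 3 (log2 fold change -1.12), and was -0.39 without responsive tumor 1. Ifit2, Ifit3 and Ifit3b, summed, had 68.8, 55.4 and 85.6 FPKM, then 54.8, 65.3 and 88.1 FPKM, then 25.7, 59.1 and 56.4 FPKM in PBS, nonresponsive and responsive tumors, with overlap and a fold change of -0.61 (adjusted p = 0.973, limma).

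The OAS genes held 2 of the 4 features called, all lower, where 1.43% of all genes were called lower. OAS1 and OAS3 are enzymes that make 2'-5'-linked oligoadenylate on double-stranded RNA, which activates RNase L to degrade RNA, and OASL proteins are relatives with other antiviral roles. All 5 features were below 0 between responsive and nonresponsive tumors, against 57.5% of all genes. Of these, 3 were lower without overlap, against 4.74% of all genes. The median was -0.78, against -0.07 for all genes. The mean log2(FPKM + 1) of the 5 was 5.10, 4.71 and 4.90 in the nonresponsive tumors, all above the responsive tumors at 3.68, 4.36 and 4.39.

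Oas1a had 90.0, 73.3 and 47.7 FPKM in the nonresponsive tumors and 21.8, 33.1 and 33.9 FPKM in the responsive tumors. The PBS tumors had 34.5, 57.4 and 74.9 FPKM and lay above all responsive tumors. Oas1a was 2.38-fold lower by the ratio of mean FPKM and -1.20 on the log2 scale (SE 0.31, unadjusted p under 0.05, adjusted p = 0.887, limma), the largest fall among the members. In 3 tumors, PBS tumors 2 and 3 and nonresponsive tumor 1, its entry also named another gene of the Oas1 cluster. None of these was a responsive tumor, so the size of its fall depends partly on the sharing. With Oas1a, Oas1c and Oas1g summed in all tumors the values were 92.6, 83.9 and 62.3 FPKM in nonresponsive and 31.4, 44.2 and 48.0 FPKM in responsive tumors, a log2 fold change of -0.94 that also passed. Summed in this way the fall was no longer the largest, since Oas3 had -0.96.

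Oas3, which had an entry of its own throughout, stood at 20.4, 15.3 and 19.6 FPKM in the nonresponsive tumors and 5.93, 9.90 and 11.9 FPKM in the responsive tumors. With PBS it had 11.8, 14.1 and 17.9 FPKM, so that the PBS range met both other groups. Oas3 was 2.00-fold lower in responsive tumors (log2 fold change -0.96, SE 0.29, unadjusted p under 0.05, adjusted p = 0.887, limma). Oas1a and Oas3 kept an unadjusted p under 0.05 whichever tumor was left out.

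Oasl2 had 61.3, 76.9 and 79.4 FPKM in the PBS tumors, 93.3, 68.1 and 95.7 FPKM in the nonresponsive tumors and 32.0, 62.1 and 59.2 FPKM in the responsive tumors, with no overlap between the last 2. It just missed the threshold (log2 fold change -0.78, SE 0.32, adjusted p = 0.887, limma) and passed without responsive tumor 2 (log2 fold change -0.94), but was -0.48 without responsive tumor 1. Oasl1 (7.42 to 22.1 FPKM in responsive and 16.1 to 34.0 FPKM in nonresponsive tumors) and Oas2 (5.67 to 7.42 and 5.91 to 12.8 FPKM) overlapped.

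**Figure D3:**
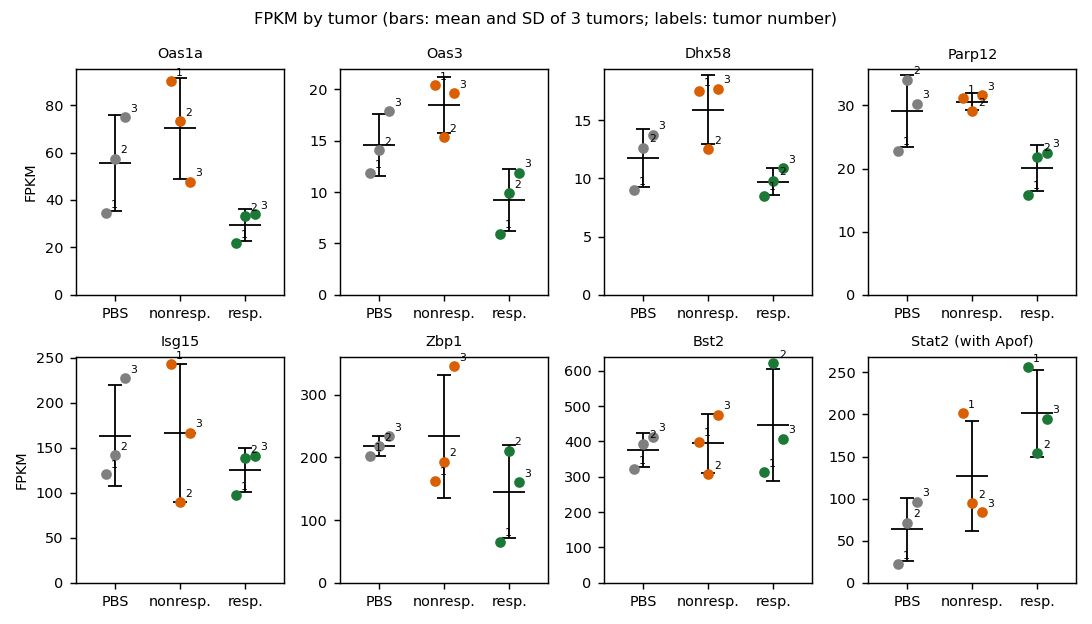
FPKM of 8 features in each tumor of the PBS, nonresponsive and responsive groups, with points numbered by tumor, bars giving the mean and SD of 3 tumors, and each vertical axis starting at 0. Oas1a, Oas3, Dhx58 and Parp12 show all responsive below all nonresponsive tumors, Isg15, Zbp1 and Bst2 overlap, and Stat2, measured with Apof, is higher in all responsive than in all PBS tumors.

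Mx1 and Mx2 encode dynamin-like GTPases that block viruses inside the cell, and common laboratory strains, C57BL/6 among them, carry defective Mx genes. Their levels were low. Mx1 had 4.89, 5.84 and 5.73 FPKM with PBS, 6.27, 4.61 and 7.72 FPKM in nonresponsive and 2.14, 4.31 and 4.69 FPKM in responsive tumors. Mx2 had 3.37, 1.84 and 3.25 FPKM, then 4.42, 2.12 and 2.64 FPKM, then 2.16, 2.50 and 1.73 FPKM. Responsive and nonresponsive tumors overlapped for both (Mx1 -0.63, adjusted p = 0.90, and Mx2 -0.34, adjusted p = 0.973, limma).

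In the membrane group Bst2 and Ifi27, 2 of 4 features, were above 0 between responsive and nonresponsive tumors, against 42.5% of all genes. Bst2 (tetherin) holds budding virus at the cell surface, Ifitm3 blocks viral fusion in endosomes, Ifi27 is a small protein of inner membranes and Rtp4 is a chaperone for receptors. Bst2 had 322, 394 and 414 FPKM in the PBS tumors, 399.6, 307 and 476 FPKM in the nonresponsive tumors and 312, 621 and 408 FPKM in the responsive tumors. Ifi27 had 83.5, 94.9 and 126 FPKM, then 90.8, 82.0 and 125 FPKM, then 101, 178 and 114 FPKM. Both were highest in responsive tumor 2, all groups overlapped, and neither passed (Bst2 0.15, SE 0.35, adjusted p = 0.983, and Ifi27 0.38, SE 0.30, adjusted p = 0.973, limma). The sign of Bst2 rested on 1 tumor, since it was -0.02 without nonresponsive tumor 2 and -0.12 without responsive tumor 2.

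Ifitm3 had the highest level of all members, at 752, 917 and 981 FPKM with PBS, 937, 947 and 1542 FPKM in nonresponsive and 664, 1521 and 799 FPKM in responsive tumors. Nonresponsive tumor 3 and responsive tumor 2, where its entry also named neighboring Ifitm genes, were the 2 high values. With those neighbors summed in all tumors the range was 1288 to 1521 FPKM in responsive and 1532 to 1791 FPKM in nonresponsive tumors, a log2 fold change of -0.20 that did not pass. Rtp4, always in 1 entry with a predicted gene, had 36.5 to 59.1 FPKM in responsive and 53.5 to 92.5 FPKM in nonresponsive tumors.

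Parp9 and Dtx3l form a complex that joins ADP-ribosylation with ubiquitin ligase activity, and Parp12 and Parp14 are mono-ADP-ribosyltransferases with antiviral roles. Parp12 had 22.8, 34.1 and 30.3 FPKM in the PBS tumors, 31.1, 29.1 and 31.6 FPKM in the nonresponsive tumors and 15.9, 21.9 and 22.5 FPKM in the responsive tumors. All responsive tumors lay below all PBS and all nonresponsive tumors, and Parp12 was lower than in nonresponsive tumors (log2 fold change -0.60, SE 0.20, unadjusted p under 0.05, adjusted p = 0.887, limma). The call was lost without nonresponsive tumor 1 (log2 fold change -0.59), 2 (log2 fold change -0.63) or 3 (log2 fold change -0.57), without responsive tumor 1 (log2 fold change -0.45), and with the tumor number as a block. In 1 tumor, PBS tumor 2, its entry also named Hipk2. With both summed in all tumors the log2 fold change over nonresponsive tumors was -0.53 and passed.

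Parp9 had 26.3, 35.7 and 29.1 FPKM in the PBS tumors, 29.4, 31.1 and 36.6 FPKM in the nonresponsive tumors and 21.3, 32.4 and 29.3 FPKM in the responsive tumors, with a fold change of -0.23 (adjusted p = 0.973, limma). Its partner Dtx3l had 25.3, 24.9 and 25.0 FPKM in nonresponsive and 15.4, 24.4 and 22.99 FPKM in responsive tumors, just without overlap (-0.28, adjusted p = 0.973, limma). Parp14, always with a predicted gene, ranged from 25.2 to 33.8 FPKM in responsive and from 33.4 to 42.5 FPKM in nonresponsive tumors.

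Rsad2 (viperin) makes a chain-terminating nucleotide from CTP, and Cmpk2 is the nucleotide kinase encoded beside it. Rsad2 had 12.8, 19.3 and 30.8 FPKM with PBS, 41.1, 13.4 and 15.3 FPKM in nonresponsive and 10.8, 7.99 and 16.6 FPKM in responsive tumors. Cmpk2 had 14.4, 10.4 and 15.9 FPKM, then 14.0, 10.4 and 14.97 FPKM, then 4.95, 10.5 and 9.23 FPKM. Both overlapped, by 1 tumor each (Rsad2 -0.80, SE 0.49, adjusted p = 0.969, and Cmpk2 -0.65, SE 0.31, adjusted p = 0.90, limma).

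The other effectors were Eif2ak2 (PKR, which stops translation on double-stranded RNA), Ifi44, Samd9l, Slfn5, Trim30a and Xaf1. All 6 were below 0 between responsive and nonresponsive tumors, by -0.37 to -0.64, against 57.5% of all genes. All of them overlapped and 0 passed. Trim30a, whose entry named related Trim genes in 7 tumors, had 75.8, 38.5 and 87.3 FPKM with PBS, 77.2, 68.9 and 79.2 FPKM in nonresponsive and 59.1, 25.0 and 84.6 FPKM in responsive tumors. Xaf1 had 52.3, 74.9 and 80.9 FPKM, then 39.0, 80.2 and 90.7 FPKM, then 25.1, 75.2 and 41.8 FPKM. Both spread widely within each group. Samd9l had 27.7, 26.9 and 22.98 FPKM in the PBS tumors, 23.9, 27.7 and 25.1 FPKM in the nonresponsive tumors and 13.7, 24.3 and 21.6 FPKM in the responsive tumors. Slfn5 (-0.64) passed without nonresponsive tumor 3 (log2 fold change -0.89) and was -0.44 without responsive tumor 2. Ifi44 changed sign without responsive tumor 1, from -0.37 to 0.07.

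**Figure D4:**
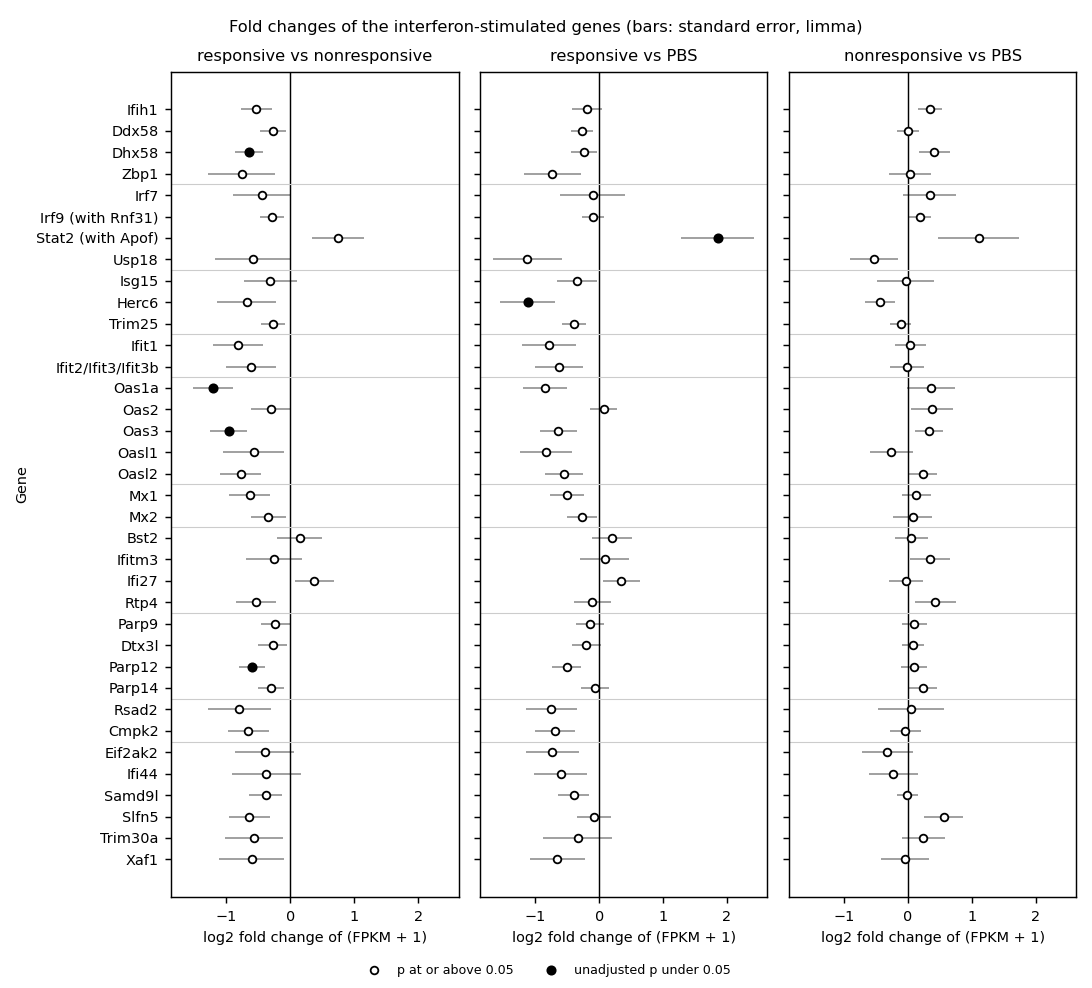
Log2 fold change of FPKM + 1 with its standard error for each of the 36 features in the 3 comparisons, with filled points at an unadjusted p under 0.05 (limma) and gray lines between role groups. In the left panel 33 of 36 points lie below 0 and 4 are filled, in the middle panel 31 lie below 0 and 2 are filled, and in the right panel 24 lie above 0 and 0 are filled.

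Against PBS tumors, responsive tumors had 31 of 36 features below 0, against 57.8% of all 13835 genes tested, with a median of -0.37, against -0.11 for all genes. At an unadjusted p under 0.05, 1 feature was lower, against 8.77% of all genes, and 1 was higher, against 8.49%, and 17.3% of all genes were called in either direction. After adjustment 0 of 36 passed, where 32 genes, 0.231%, passed in all. Herc6, at 9.70 to 31.5 FPKM in responsive and 39.9 to 48.7 FPKM in PBS tumors, was lower (log2 fold change -1.12, SE 0.43, unadjusted p under 0.05, adjusted p = 0.286, limma). That call was lost without any 1 of the PBS tumors (log2 fold changes -1.15, -1.03 and -1.17 without tumors 1, 2 and 3), without responsive tumor 3 (log2 fold change -1.24) and in a model without pooling of variance across genes, and without responsive tumor 1 the fold change was reduced to -0.65. The entry of Stat2 with Apof was higher (1.85, SE 0.57, unadjusted p under 0.05, adjusted p = 0.280, limma), a call lost without responsive tumor 1 (log2 fold change 1.67). Hepatocyte markers stood higher in all responsive than in all PBS tumors, and their part in this call was not tested.

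Features with all responsive below all PBS tumors numbered 7, against 16.4% of all genes, and those with all above numbered 1, against 11.6%. The 7 were Ddx58, Herc6, Trim25, Oas1a, Oasl1, Mx1 and Parp12. Oas1a had a fold change of -0.85 (SE 0.34, adjusted p = 0.291, limma) and Parp12 of -0.51 (SE 0.23, adjusted p = 0.302, limma), and both passed without PBS tumor 1, the tumor with few hepatocyte markers (log2 fold changes -1.15 and -0.67). Their smallest fold changes with 1 tumor left out were -0.60 for Oas1a, without PBS tumor 3, and -0.36 for Parp12, without responsive tumor 1. The Oas1a entry also named other Oas1 genes in PBS tumors 2 and 3 but in no responsive tumor. Without PBS tumor 1, shared entries were thus set against Oas1a alone. With Oas1a, Oas1c and Oas1g summed, PBS tumors had 50.5, 57.4 and 76.6 FPKM and responsive tumors 31.4, 44.2 and 48.0 FPKM. The Parp12 entry also named Hipk2 in PBS tumor 2 but in no responsive tumor. Its fold changes over PBS tumors are therefore affected in the same way. With Parp12 and Hipk2 summed, PBS tumors had 31.8, 34.1 and 39.7 FPKM and responsive tumors 23.8, 29.2 and 30.1 FPKM. Oasl1 (-0.83) passed without responsive tumor 2 (log2 fold change -1.14), as did Usp18 (-1.12, then -1.59), but without responsive tumor 1 they were -0.41 and -0.57. Without responsive tumor 1 the median over the members was -0.20.

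Between nonresponsive and PBS tumors the median fold change was 0.08, against -0.06 for all 13788 genes, with 24 of 36 features above 0, against 44.5% of all genes (55.5% were below). At an unadjusted p under 0.05 by limma 0 of 36 features passed, against 3.23% of all genes (1.52% higher and 1.71% lower), and 0 also passed in a model without pooling of variance, while 11 genes, 0.0798%, passed after adjustment. Ifih1 was higher without overlap, the 1 such feature, against 3.23% of all genes, and 0 features were lower without overlap, against 4.98%. It was at 10.3 to 13.6 FPKM in PBS and 14.2 to 17.4 FPKM in nonresponsive tumors (0.34, SE 0.18, adjusted p = 0.717, limma). Without nonresponsive tumor 3 the count of calls was 3 of 36, for Herc6 (log2 fold change -0.64), Usp18 (-0.89) and Slfn5 (0.81), a smaller share than the 13.6% of all genes called in the same fit. The 3 comparisons share tumors and are not independent of each other.

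Genes around the response were read from lists of the ligands, the receptors and their signaling, the induction of interferon, other interferon-stimulated genes and the interferon-gamma axis. Of 18 type I interferon genes 15, all Ifna genes among them, were listed at 0 in all 9 tumors. Ifnb1 was listed at 0.220 FPKM in nonresponsive tumor 3 and 0.10 FPKM in responsive tumor 3 and at 0 elsewhere, so the levels of the main ligands could not be compared. Ifnk alone passed the filter, at 0.360 to 1.44 FPKM in responsive and 0.361 to 5.12 FPKM in nonresponsive tumors (-0.71, adjusted p = 0.973, limma).

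Counted over genes with an entry of their own, all 9 receptor and signaling genes tested were below 0 in responsive over nonresponsive tumors and 0 passed, with a median of -0.27. Socs3, which blocks JAK kinases, had 158, 73.7 and 76.0 FPKM in nonresponsive and 89.6, 66.3 and 84.3 FPKM in responsive tumors, with overlap. Of 13 induction genes 11 were below 0 and 0 passed, with a median of -0.28, and 4 were lower without overlap. Of 16 other interferon-stimulated genes 15 were below 0 and 0 passed, with a median of -0.29, and 4 were lower without overlap. Ly6e, the most abundant of them, had 1381, 1509 and 1331 FPKM in nonresponsive and 1286, 1211 and 1443 FPKM in responsive tumors. All 8 interferon-gamma axis genes were below 0, all overlapped between the groups and 0 passed, with a median of -0.29. Cxcl9, which attracts T cells, had 182, 376 and 577 FPKM in nonresponsive and 109.9, 155 and 335 FPKM in responsive tumors (-0.93, SE 0.59, adjusted p = 0.973, limma). On the same count 22 of the 24 members with their own entry were below 0, 2 passed, both lower, and 7 were lower without overlap, with a median of -0.48. Over all genes 57.5% were below 0, 5.49% passed in either direction and 1.43% passed lower. Of all genes 4.74% were lower without overlap, and their median was -0.07.

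With shared entries counted as well, as for the 36 features, 33 of 35 other interferon-stimulated features were below 0, against 57.5% of all genes. Their median was -0.32, and 8 were lower without overlap, against 4.74% of all genes. At an unadjusted p under 0.05, 4 were lower, against 1.43% of all genes. The 4 were Slfn8, Slfn9, Gm4951 and the entry holding Ifi203, Ifi204 and Ifi205, named after their values were seen. Slfn8 and Slfn9, both of the Schlafen family, had the same values in the PBS and nonresponsive tumors, where they shared an entry, so they are not independent. Slfn8 had 19.6, 35.2 and 32.2 FPKM in nonresponsive and 7.597, 8.80 and 12.2 FPKM in responsive tumors (-1.49, SE 0.30, adjusted p = 0.778, limma). In the responsive tumors the values of the 2 genes differed, and Slfn9 had 2.72, 13.1 and 10.2 FPKM. An entry shared by both genes was thus set against separate values. The fold change of -1.49 cannot be read as a change of Slfn8 alone. Gm4951 had the values of Iigp1 in all nonresponsive tumors. In responsive tumors 2 and 3 it had 24.7 and 36.6 FPKM, where Iigp1 had 226 and 176 FPKM. Its fold change is therefore affected in the same way, and Iigp1 itself overlapped (-0.30, adjusted p = 0.973, limma). In the other lists with shared entries 0 features passed, against 5.49% of all genes. Medians were -0.27 for receptors and signaling, -0.26 for induction and -0.34 for the interferon-gamma axis. The mean log2(FPKM + 1) of that axis was 5.18, 6.92 and 6.61 in responsive and 6.38, 6.54 and 6.91 in nonresponsive tumors. Only responsive tumor 1 lay below the nonresponsive range. Entries counted for 2 genes raised these means, for Tap1 and Psmb8 in responsive tumors 2 and 3 and for Gbp2 and Gbp3 in nonresponsive tumor 1.

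**Figure D5:**
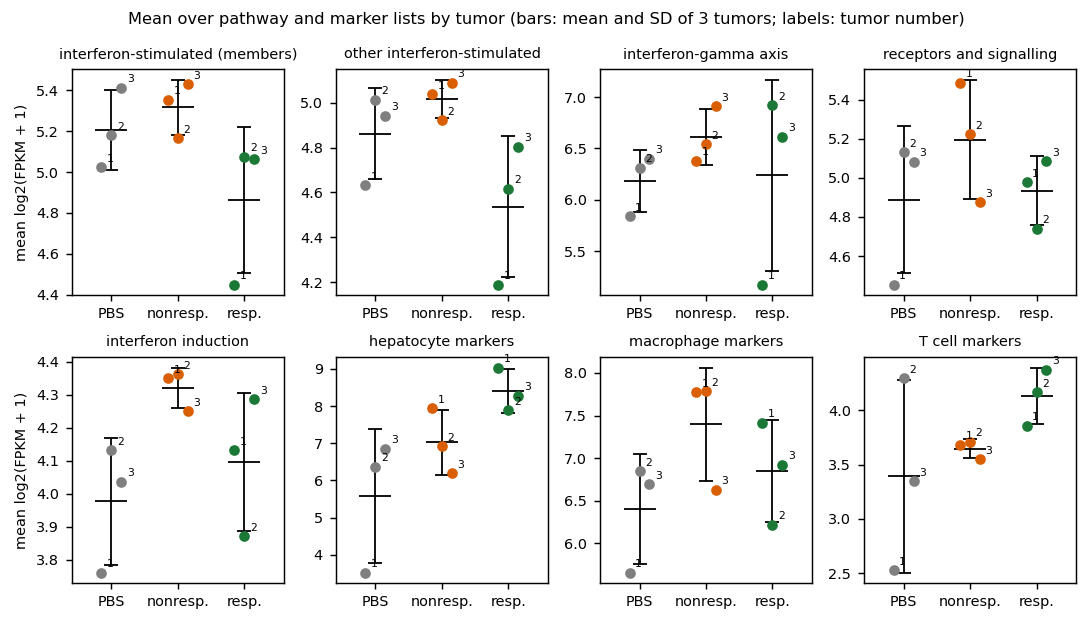
Mean log2(FPKM + 1) by tumor over the 36 features, 4 other interferon lists and the hepatocyte, macrophage and T cell marker lists, with points numbered by tumor and bars giving the mean and SD of 3 tumors. The hepatocyte panel spans 3.52 to 9.04, far more than the interferon panels, and responsive tumor 1 is its highest point. Vertical axes differ between panels and do not start at 0.

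Markers of cell types moved between the same tumors, and their part in the results was not tested. Over all genes, 42.5% were above 0 and 57.5% below 0 in responsive over nonresponsive tumors. At an unadjusted p under 0.05 by limma, 4.06% of all genes passed higher and 1.43% lower. In responsive over nonresponsive tumors all 18 hepatocyte markers were above 0 and 7 passed at an unadjusted p under 0.05, with a summed level of 12942 to 24400.1 FPKM against 4834 to 15786 FPKM. All 11 T cell markers were above 0 and 4 passed, at a summed 188 to 253 FPKM against 137 to 166 FPKM. Of 12 macrophage markers 11 were below 0 and 1 passed, at 2842 to 9047 FPKM against 3060 to 8123 FPKM. In nonresponsive tumors 1 and 2 C1qb and C1qc had the same values, 869 and 972 FPKM, from a shared entry. It was counted for both genes there, which raises the nonresponsive levels of the macrophage list. All 6 B cell markers were tested, 5 were above 0 and 5 passed, with a median of 1.68 and a summed 60.1 to 210.6 FPKM against 29.07 to 49.0 FPKM. Of 8 markers of plasmacytoid dendritic cells, known as the main producers of interferon-alpha, 7 were tested, 3 were above 0 and 2 were called higher, Ly6d (1.70, adjusted p = 0.887, limma) and Spib (1.70, adjusted p = 0.887, limma), which B cells express too. Siglech was at 1.96 to 3.31 FPKM in responsive and 1.44 to 4.05 FPKM in nonresponsive tumors and Ccr9 was listed at 0 in all 9 tumors. All 8 neutrophil, 6 fibroblast and 6 endothelial markers were below 0 and 0 passed, and all 4 fetal liver and tumor markers tested were below 0, of which H19 passed (-1.95, adjusted p = 0.887, limma). The mean log2 level of the macrophage markers was 7.42 in responsive tumor 1, against 6.63 to 7.79 in the nonresponsive tumors. The shared C1qb and C1qc entry raises the upper end of that range.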

How the data were processed

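RNA was measured in 9 tumors, 3 PBS, 3 nonresponsive and 3 responsive, grouped by the labels. For each tumor the authors deposited a table of FPKM per assembled entry, normalized for transcript length and mapped fragments. The submitters' processing notes name TopHat2 2.1.1, Bowtie2 2.2.4 and the build mm8. Gene positions in the tables did not match the reference at hand, so none are printed from them. A deposited table of Cuffdiff fold changes, p-values and q-values between groups was not used.

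Entries were joined by gene symbol, FPKM was summed over entries naming a gene, and genes with identical entries in all tumors were kept as 1 feature. Names on several chromosomes (19) and genes with a failed estimate (13) were left out. Genes with an FPKM of at least 1 in 3 of the 6 tumors compared were tested on log2(FPKM + 1), with a pseudocount of 1, by limma 3.58.1 in R 4.3.3 (trend, two-sided). Benjamini-Hochberg adjustment covered every gene in the fit. Such fold changes understate those of low genes. FPKM gives relative depth only. Matrices were built with pandas 2.3.3 in Python 3.11.15. The steps were tested on simulated data.

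The members, role groups and lists were chosen with earlier results of these data known. Any member may be named. Values per tumor are given for the 2 members of each role group with the highest mean FPKM, preferring those with their own entry, for members with an unadjusted p under 0.05, and for the 3 largest and 3 smallest fold changes between responsive and nonresponsive tumors. A few others were added after their values were seen. Of the other lists, abundant and called genes may be named. A gene of the signaling list is not reported here. Alternatives were other pseudocounts, filters, scaling, fits and joins of entries, and leaving out each tumor.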

Additional observations from a re-analysis of the deposited data

How the results depend on the processing

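The median fold change of the members kept its sign in all 3 comparisons under every alternative tried, and leaving out 1 tumor at a time moved it between -0.62 and -0.23 for responsive over nonresponsive tumors. Counts moved more. The 4 member calls between responsive and nonresponsive tumors became 7 with all 9 tumors in 1 fit and 2 among genes with their own entry, an alternative chosen after seeing the data, and ranged from 2 to 6 when 1 tumor was left out. The share of all genes called at the same unadjusted threshold was 5.64% with all 9 tumors, against 5.49% as reported, and 2.33% to 10.5% with 1 tumor left out. The 2 calls against PBS became 7 with all 9 tumors in 1 fit, 1 without pooling of variance and 0 with own entries, and ranged from 1 to 6, where 14.9% of all genes were called with all 9 tumors, 14.4% without pooling and 7.71% to 28.6% with 1 tumor left out. For nonresponsive over PBS tumors leaving out 1 tumor gave 0 to 3 calls, against 1.65% to 13.6% of all genes. Over all genes, the 16 adjusted calls between responsive and nonresponsive tumors became 10 with no filter, 8 with a minimum FPKM of 5, 8 with joined loci and 7 without pooling of variance, and ranged from 12 to 37. The 32 against PBS became 16 with all 9 tumors, 19 with joined loci and 20 without pooling, and ranged from 31 to 60. The 11 for nonresponsive over PBS tumors became 5 with no filter, 6 with all 9 tumors, 5 with joined loci and 5 without pooling, and ranged from 6 to 39.

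Of single genes, signs turned when 1 tumor was left out for Isg15 (-0.70 to 0.0193), Ifi44 (-0.79 to 0.0749) and Bst2 (-0.12 to 0.38) in responsive over nonresponsive tumors and for Bst2 against PBS (-0.0689 to 0.43).

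The tumors were not treated as paired by number. Correlations of same-numbered tumors ran from -0.03 to 0.51 for responsive with nonresponsive, from -0.34 to 0.14 for responsive with PBS and from -0.42 to -0.05 for nonresponsive with PBS tumors. Those of differently numbered responsive and nonresponsive tumors ran from -0.50 to 0.47. With 3 tumors per group such correlations cannot settle whether the numbers pair the tumors. With the number as a block, adjusted calls over all genes were 1, 0 and 0 in these comparisons and member calls 3, 3 and 0, against 6.76%, 6.83% and 1.72% of all genes. Medians were -0.53, -0.37 and 0.08. Upper-quartile scaling moved the median of all genes between responsive and nonresponsive tumors from -0.07 to -0.03. Depth in fragments is unknown, and FPKM near 1, as for Mx2 and the ligands, rests on few fragments.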
